A study of Mus musculus with 4 samples.

Results

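Hematopoietic stem and progenitor cells (HSPCs) are held in the bone marrow (BM), leave it for the blood, and settle in the spleen through a small set of surface proteins, and 9 of the 32285 genes counted in this study encode such proteins. They were taken as a fixed list: Cxcr4, the chemokine receptor; Itga4, Itgb1, and Itgal, the integrin chains; Selp and Selplg, P-selectin and its ligand; Cd44, the hyaluronan receptor; and Cd69 and S1pr1, the pair that governs egress. The list was not chosen by a threshold on measured values, although earlier results of these libraries were known when it was set. The question was how the 9 genes differed between spleen and BM cells of the same class, in control and in tumor-bearing mice.

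Single-cell RNA-sequencing (scRNA-seq), in which each droplet gives a barcode and each captured RNA molecule a unique molecular identifier (UMI), had been performed on 4 libraries of C57BL/6J mice aged 8 to 16 weeks, 1 library for each of control BM (CBM), control spleen (CS), tumor-bearing BM (TBM), and tumor-bearing spleen (TS). Tumor-bearing mice carried PyMT-B6, a line grown from mammary tumors of an MMTV-PyMT mouse, in which the MMTV promoter drives the PyMT oncogene, and control mice in that model received buffer. Both tissues were digested with collagenase and DNase, depleted of lineage-positive cells, and sorted into c-Kit+ and CD45- populations that were pooled in equal parts, so the libraries do not reflect the cell makeup of the organs. The number of mice behind each library is not given in the sources used here.

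In adult marrow, CXCL12 made by stromal cells binds CXCR4 and retains HSPCs, while the integrin of the α4 and β1 chains binds VCAM-1 and fibronectin on stroma and endothelium. P-selectin on activated platelets and endothelium captures cells that carry PSGL-1, the product of Selplg, and CD44 binds hyaluronan in the matrix. Sphingosine-1-phosphate (S1P), which is abundant in blood and lymph, draws cells out of tissue through S1PR1, and CD69 binds S1PR1 and takes it off the cell surface, which holds lymphocytes in the tissue.

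Barcodes with at least 1000 genes and at most 10% mitochondrial UMIs were kept, 3497 in CBM, 3236 in CS, 4340 in TBM, and 5188 in TS, from libraries of 101811035 to 176094297 UMIs. Any pair of libraries shared 2 to 9 of these barcodes, where 1.67 to 3.31 would be expected from the barcode set. The cells were clustered without the 9 genes, and clusters were named from marker genes. HSPC-like cells numbered 815 in CBM, 151 in CS, 902 in TBM, and 647 in TS, with a median depth of 13231 to 19460 UMIs per cell, and all 10 HSPC markers were detected in each library. Their summed level was 1657 CPM in CBM, 1265 in CS, 1478 in TBM, and 1046 in TS. No cluster was macrophage-like or stromal-like, and 32 barcodes with mixed endothelial and stromal genes were too few to compare, so the niche side of these interactions was not measured. Levels are UMIs of a gene per 1000000 UMIs of all genes (CPM), summed over the cells of a class in a library. With 1 library per group, no test between groups was run. The 95% intervals (exact Poisson for levels, exact conditional for ratios, exact binomial for shares) hold the error of counting and not the spread between mice. Those for levels and ratios also leave out the spread between the cells of a library.

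In HSPC-like cells, 2 of the 9 genes were at least 2-fold higher in control spleen than in control BM, Cd69 and Selp, and none was 2-fold lower. Among all 13036 genes with at least 10 UMIs there, 3.36% were 2-fold higher and 4.2% 2-fold lower. Between TS and TBM, 1 of the 9, Cd69, was at least 2-fold higher, and none was 2-fold lower, against 2.4% and 5.41% of 13351 genes. All 9 genes passed the minimum of 10 UMIs in both comparisons. The median log2 ratio over the 9 genes was 0.07 in the control and -0.06 in the tumor-bearing pair, beside 0.01 and -0.03 over all genes. Genes with few UMIs pass a 2-fold limit by counting error more often, and with at least 100 UMIs the share past it in either direction was 1.49% in the control pair and 1.82% in the tumor-bearing pair.

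**Figure D1:**
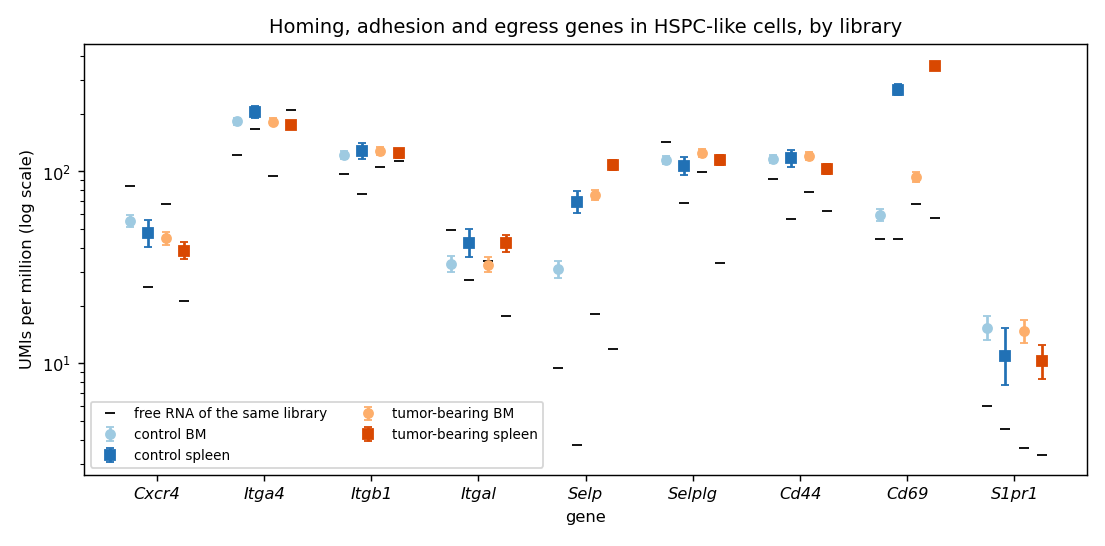
CPM (log scale) of the 9 genes in HSPC-like cells of each library, with exact Poisson 95% intervals; black dashes mark the level in the free RNA of the same library. Cd69 stands at 266 in CS and 353 in TS against 59.2 in CBM and 93.6 in TBM. Cxcr4 and Itgal lie below the free RNA in both BM libraries, Selplg does in CBM, and Itga4 does in TS.

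Cd69 (ENSMUSG00000030156, chromosome 6, 129267325 to 129275436, minus strand, GRCm38) encodes the membrane protein that removes S1PR1 from the surface. HSPC-like cells of BM held 59.2 CPM (55.1 to 63.5) in control and 93.6 CPM (88.6 to 98.8) in tumor-bearing mice. The spleens were far higher, 266 CPM (249 to 285) with 873 UMIs for CS and 353 CPM (341 to 365) with 3367 UMIs for TS. Both spleen libraries thus lay above both BM libraries, with intervals that lie apart. The log2 ratio was 2.17 (2.03 to 2.31) in control and 1.91 (1.82 to 2.01) in tumor-bearing mice. Between mice, TS was above CS by 0.40 (0.30 to 0.51) and TBM above CBM by 0.66 (0.53 to 0.79), both less than the difference between organs.

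The share of HSPC-like cells with a Cd69 UMI followed the same order. With 2000 UMIs drawn at random from every cell, a depth that 1 TBM cell did not reach, it was 9.08% (7.20% to 11.3%) in CBM, 29.8% (22.6% to 37.8%) in CS, 13.5% (11.4% to 15.9%) in TBM, and 38.2% (34.4% to 42.0%) in TS. Without thinning the shares were 33.7%, 63.6%, 46.0%, and 73.4%. In hemoglobin-rich erythroid-like cells, which should lack the gene, it was found in 0 of 98 CBM cells, 0 of 62 CS cells, 2 of 133 TBM cells, and 1 of 41 TS cells at the same depth, where a count of 0, taken as up to 3 cells of the total, allows a share of up to 3.06% and 4.84%. Their median depth was 11120 to 17730 UMIs. The free RNA of the libraries, from barcodes with at most 100 UMIs, held Cd69 at 44.3 to 67.7 CPM, so the BM levels in HSPC-like cells were closer to it than the spleen levels.

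HSPC-like cells fell into 3 clusters. 1 was led by Hlf and Adgrl4 and held 664 CBM, 83 CS, 550 TBM, and 34 TS cells. The next was led by Adgrl4, Cd34, and the immune and stress genes Dusp2, Cxcl2, and Socs3, and held 37 CBM, 41 CS, 211 TBM, and 429 TS cells. The last carried Dntt and the cell cycle genes Nusap1 and Pimreg and held 114 CBM, 27 CS, 141 TBM, and 184 TS cells. Spleen and BM therefore drew on these clusters in different proportions, so each was also compared alone, a step added after the data were seen.

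Cd69 was higher in spleen within each cluster. In the Hlf-led cluster it was 57.6 CPM in CBM, 224 in CS, 98.5 in TBM, and 323 in TS. In the cluster with Dusp2 and Cxcl2 it was 60.1, 381, 75.7, and 408 CPM, and in the cluster with Dntt 63.4, 210.1, 105 and 278 CPM, in the same order. The lowest spleen value of the 3 clusters was thus above the highest BM value. The log2 ratios were 1.96, 2.66, and 1.73 in control and 1.71, 2.43, and 1.404 in tumor-bearing mice, from the Hlf-led to the Dntt cluster.

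**Figure D2:**
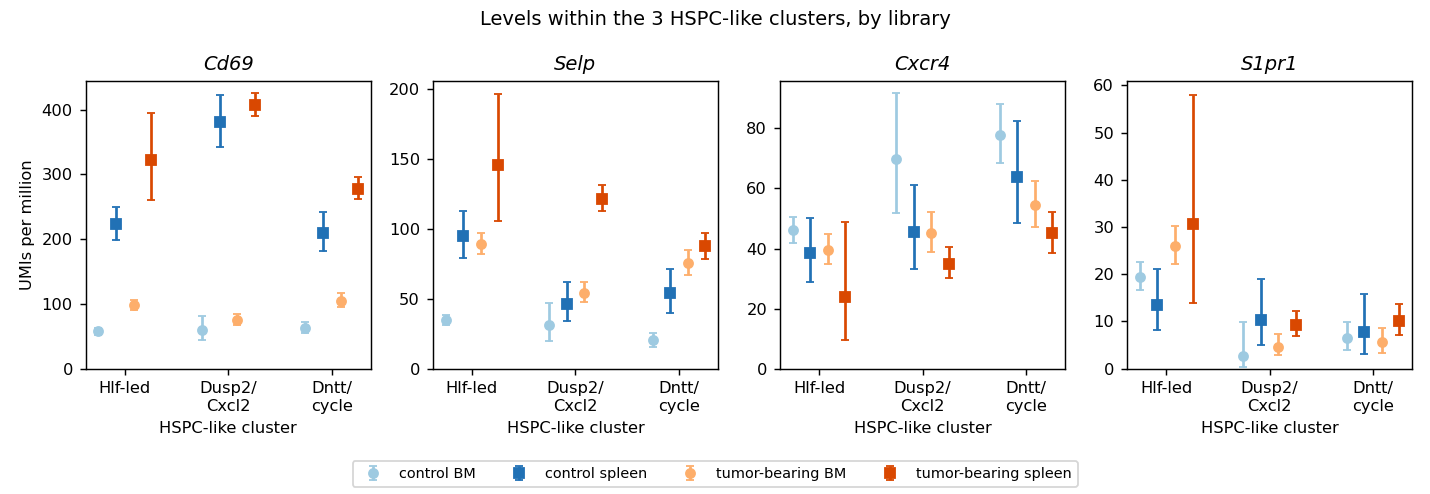
CPM of Cd69, Selp, Cxcr4, and S1pr1 in each of the 3 HSPC-like clusters (x axis) by library, with exact Poisson 95% intervals and axes that start at 0. Cd69 separates spleen from BM in all 3 clusters, whereas S1pr1 is highest in the Hlf-led cluster in each library.

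Basophil-like cells held more Cd69 than any other class, and a list of dissociation and immediate-early genes also differed between the organs. The 10 basophil markers summed to 712 CPM in HSPC-like cells of CBM, 821 in CS, 1619 in TBM, and 1778 in TS, with 3 of the 10 at 0 UMIs in CS and none at 0 elsewhere. Without the cells that held a UMI of a basophil marker (other than Ifitm1, Il6, and Cyp11a1), which kept 683 CBM, 116 CS, 526 TBM, and 483 TS cells, the Cd69 log2 ratio was 2.22 in the control and 2.05 in the tumor-bearing pair, against 2.17 and 1.91 with them. The 20 dissociation and immediate-early genes, among them Fos, Jun, and Egr1, summed to 6069 CPM in CBM, 10451 in CS, 6733 in TBM, and 10054 in TS. Of these 20 genes, 19 were higher in CS than in CBM (median log2 ratio 0.88) and 16 in TS than in TBM (0.58). The part of dissociation in the Cd69 values was not tested.

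S1pr1 (ENSMUSG00000045092, chromosome 3, 115710433 to 115715072, minus strand) encodes the receptor through which S1P draws cells out of tissue. In HSPC-like cells CBM held 200 UMIs of it, or 15.4 CPM (13.3 to 17.6), and CS 36 UMIs, or 10.98 CPM (7.69 to 15.2). TBM held 208 UMIs, or 14.7 CPM (12.8 to 16.8), and TS 98 UMIs, or 10.3 CPM (8.33 to 12.5). Both spleens were lower, with log2 ratios of -0.48 (-1.04 to 0.03) and -0.52 (-0.88 to -0.16), of which the first does not exclude 0. The direction did not hold within the clusters. The Hlf-led cluster, which held most BM but few TS cells, had the highest levels, 19.5, 13.6, 26.0, and 30.6 CPM in CBM, CS, TBM, and TS, the last from 9 UMIs. The cluster with Dusp2 and Cxcl2 held 2.73, 10.3, 4.66, and 9.30 CPM, and the cluster with Dntt 6.53, 7.70, 5.58, and 10.1 CPM. Spleen was thus above BM in 2 of the 3 clusters in the control pair and in all 3 in the tumor-bearing pair. From the Hlf-led to the Dntt cluster, the log2 ratios were -0.52, 1.92, and 0.24 in control mice. In tumor-bearing mice they were 0.23, 0.999, and 0.85. The last 2 rest on 50 TS and 19 TBM UMIs and on 39 TS and 20 TBM UMIs. The level intervals overlap in every pair, which does not show that a ratio includes 0. No interval of a ratio was taken within clusters. The free RNA held S1pr1 at 3.33 to 6.02 CPM, and the BM levels of the last 2 clusters lay near it. After thinning, 2.45% to 3.33% of HSPC-like cells held an S1pr1 UMI (12.4% to 21.2% without thinning), and no difference between libraries was detectable at this depth. No hemoglobin-rich erythroid-like cell held one at the thinned depth, which allows up to 2.26% to 7.32%. When HSPC-like cells were instead taken as those with UMIs of the 4 genes Kit, Ly6a, Cd34, and Ptprc, whatever their cluster, the rule took 374 CBM, 134 CS, 556 TBM, and 435 TS cells. It put S1pr1 at -1.18 in control and -0.87 in tumor-bearing mice, the first past 2-fold, and left Cd69 at 1.62 and 1.66. HSPC-like cells that held a UMI of the megakaryocyte markers Pf4, Gp9, Gp1bb, Ppbp, Treml1, Clec1b, or Gp6 were also left out, a step added after the data were seen. S1pr1 was then at -0.74 in control and -0.13 in tumor-bearing mice, the second outside its interval above, and Cd69 at 2.29 and 2.04.

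Selp (ENSMUSG00000026580, chromosome 1, 164115264 to 164150026, plus strand), which encodes P-selectin, was the other gene past 2-fold. 2 antisense genes, Gm16587 and Gm16548, overlap it. HSPC-like cells of CBM held 30.9 CPM (28.0 to 34.1), those of CS 69.3 CPM (60.5 to 78.9), those of TBM 75.7 CPM (71.3 to 80.4), and those of TS 109 CPM (102.1 to 115). CBM was lowest and TS highest, and the intervals of CS and TBM overlap. The log2 ratio was 1.16 (0.92 to 1.401) in control and 0.52 (0.40 to 0.64) in tumor-bearing mice, and the tumor-bearing ratio was below the control ratio by a log2 difference of -0.64 (-0.91 to -0.38). TBM was above CBM by 1.29 (1.13 to 1.46), the 1 member past 2-fold in that comparison, where 3.32% of genes were 2-fold higher. TS was above CS by 0.65 (0.44 to 0.86), and there none of the 9 genes was past 2-fold in either direction, beside 7.67% of all genes.

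**Figure D3:**
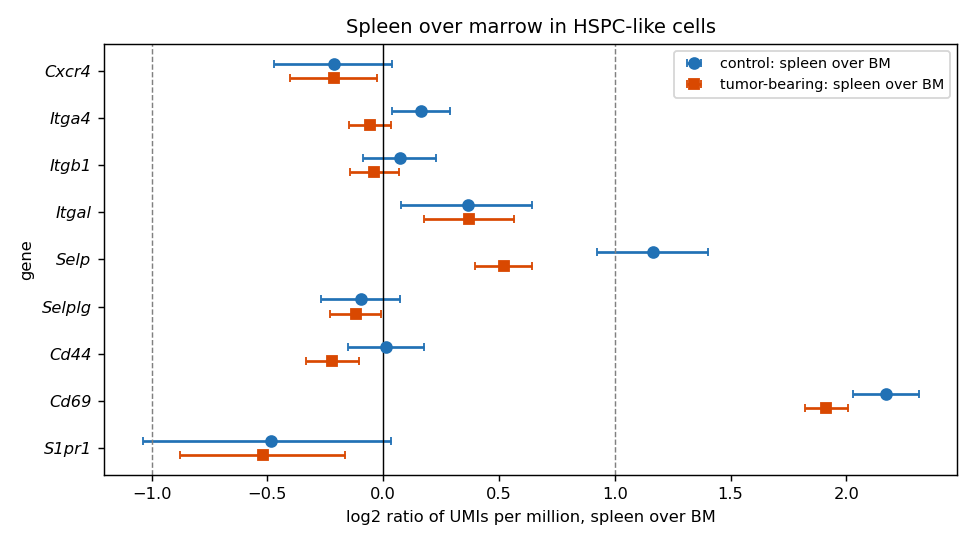
log2 ratio of CPM, spleen over BM, for the 9 genes (y axis) in HSPC-like cells of control and tumor-bearing mice, with exact conditional 95% intervals; dashed lines mark 2-fold. Cd69, at 2.17 and 1.91, lies far from the other genes, and Selp is past 2-fold in the control pair alone.

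After thinning to 2000 UMIs, a Selp UMI was found in 5.40% of CBM, 13.2% of CS, 12.7% of TBM, and 20.1% of TS HSPC-like cells, and without thinning in 28.6%, 55.6%, 52.1%, and 68.2%. No hemoglobin-rich erythroid-like cell of any library held one at the thinned depth. Free RNA held Selp at 3.75 to 18.2 CPM. Within the clusters, Selp was 34.7, 94.98, 89.2, and 146 CPM in CBM, CS, TBM, and TS for the Hlf-led cluster, 31.4, 46.5, 54.4, and 122 CPM for the cluster with Dusp2 and Cxcl2, and 20.2, 53.9, 75.6, and 87.6 CPM for the cluster with Dntt. Spleen was above BM in each cluster in both pairs, although intervals overlap for CS and CBM in the cluster with Dusp2 and Cxcl2 and for TS and TBM in the cluster with Dntt. In the cluster with Dusp2 and Cxcl2, which held most TS cells, the Selp log2 ratio was 0.56 in control and 1.16 in tumor-bearing mice, so the order of the pairs turned there. Megakaryocyte-like cells also held Selp, and the 10 megakaryocyte markers summed to 119 CPM in CBM, 88.5 in CS, 129 in TBM, and 97.2 in TS HSPC-like cells, lower in each spleen, with 1 marker at 0 in each library. Without the cells that held a UMI of the 7 megakaryocyte markers given for S1pr1, the Selp log2 ratios were 1.16 and 0.54. When cells were chosen by the UMI rule given for S1pr1, Selp was no longer past 2-fold, at 0.48 in the control and 0.17 in the tumor-bearing pair.

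Of the 9 genes, 5 had an entry in the RefSeq promoter table of build GRCm38.p6. The 250 bases before the start of Selp are shown because Selp is the one of them that passed 2-fold in HSPC-like cells. The window was searched on both strands for an AP-1-like motif TGANTCA, in which N is any base, the CRE motif TGACGTCA, and the GATA motif AGATAA. Capitals mark the 1 match, to TGANTCA, whose first base lies 139 bases before the start.

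Selp, chr1:164115014-164115263, plus strand: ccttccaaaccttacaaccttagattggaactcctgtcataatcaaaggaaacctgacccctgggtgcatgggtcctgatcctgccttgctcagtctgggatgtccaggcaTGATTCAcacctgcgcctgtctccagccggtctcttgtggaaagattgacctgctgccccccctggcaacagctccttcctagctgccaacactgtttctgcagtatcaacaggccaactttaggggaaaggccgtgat

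A match to TGANTCA was found in 6.75% of the 32851 windows of the same length in the table, to TGACGTCA in 1.55%, and to AGATAA in 9.99%. The windows of Cxcr4, Itga4, and Itgb1 held none of the 3, and that of Cd44 held 1 match to AGATAA. These matches describe letters and not binding. Cd69, Itgal, Selplg, and S1pr1 are named only.

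Selplg (ENSMUSG00000048163, chromosome 5, 113818536 to 113832644, minus strand), which encodes PSGL-1, the ligand of P-selectin, was at 115 CPM in CBM, 107 in CS, 125 in TBM, and 115 in TS HSPC-like cells. Its log2 ratios were -0.10 (-0.27 to 0.07) and -0.12 (-0.23 to -0.01), and the first turned to 0.17 when cells were chosen by the UMI rule given for S1pr1. Free RNA held Selplg at 142 CPM in CBM, above the HSPC-like level. It was below that level in CS, TBM, and TS, at 68.9, 99.1, and 33.3 CPM. Cd44 (ENSMUSG00000005087, chromosome 2, 102811141 to 102901665, minus strand, overlapped by antisense Gm23731), the hyaluronan receptor, was at 116 CPM in CBM, 117 in CS, 119.9 in TBM, and 103 in TS, so TS was lowest, with an interval that overlaps that of CS alone. Its log2 ratio was 0.01 (-0.15 to 0.18) in control and -0.22 (-0.33 to -0.11) in tumor-bearing mice. Within the clusters the tumor-bearing ratio was 0.23 in the Hlf-led cluster, 0.056 in the cluster with Dusp2 and Cxcl2, and -0.31 in the cluster with Dntt, so its direction turned in 2 of the 3. The level intervals of TS and TBM overlap in those 2 and lie apart in the cluster with Dntt. The Hlf-led value rests on 46 UMIs in 34 TS cells. The differences of both genes were thus smaller than those of Cd69 and Selp.

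Cxcr4 (ENSMUSG00000045382, chromosome 1, 128588199 to 128592293, minus strand), the receptor for CXCL12, was highest in CBM HSPC-like cells, at 55.2 CPM (51.2 to 59.4), followed by 47.6 CPM (40.4 to 55.7) in CS, 44.9 CPM (41.5 to 48.6) in TBM, and 38.7 CPM (34.9 to 42.9) in TS. The intervals of neighbors in that order overlap, and those of CBM and TS lie apart. The log2 ratio was -0.21 in both pairs, with intervals of -0.47 to 0.04 in control and -0.40 to -0.03 in tumor-bearing mice. The free RNA held more Cxcr4 than HSPC-like cells in BM, 84.2 CPM in CBM and 67.4 CPM in TBM, and less in spleen, 25.1 CPM in CS and 21.1 CPM in TS. After subtraction of free RNA as 10% of each class, the Cxcr4 log2 ratios shrank to -0.05 in control and -0.06 in tumor-bearing mice. Thinned shares of cells with a Cxcr4 UMI were 6.65% to 9.45% in HSPC-like and 15.8% to 27.4% in hemoglobin-rich erythroid-like cells. The latter held Cxcr4 above the free RNA in CBM and CS, at 98.1 and 80.0 CPM, and below it in TBM, at 62.9 CPM. Their shares therefore cannot serve as a background for this gene, and the HSPC-like shares are not read as a difference. In all 3 HSPC-like clusters the Cxcr4 level was the lower in spleen. The log2 ratios ran from -0.62 to -0.26 in control and from -0.74 to -0.27 in tumor-bearing mice. The level intervals of spleen and BM overlap in each of these comparisons. The ratio of -0.74, in the Hlf-led cluster, rests on 7 UMIs in 34 TS cells. Free RNA was not subtracted within clusters.

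The 3 integrin chains were all under 2-fold between the organs. Itga4 (ENSMUSG00000027009, chromosome 2, 79255426 to 79333123, plus strand, overlapped by antisense Cerkl), the α4 chain, was at 182 CPM in CBM, 204 in CS, 182 in TBM, and 175 in TS HSPC-like cells. The highest value was in CS, 0.16 (0.04 to 0.29) above CBM on the log2 scale, and TS and TBM differed by -0.06 (-0.15 to 0.03). Free RNA held Itga4 at 208 CPM in TS, above the HSPC-like level. It was below that level in CBM, CS, and TBM, at 121, 167, and 94.8 CPM. With 10% free RNA subtracted, the Itga4 ratios were 0.14 in control and -0.16 in tumor-bearing mice, the second outside its interval. When cells were chosen by the UMI rule given for S1pr1, Itga4 was at 0.89 in control and 0.38 in tumor-bearing mice, which turned the direction of the second. Itgb1 (ENSMUSG00000025809, chromosome 8, 128685654 to 128733200, plus strand), the β1 chain that pairs with α4, was at 122 CPM in CBM, 128 in CS, 128 in TBM, and 124 in TS. The intervals of its 4 values overlap, and the log2 ratios were 0.07 (-0.09 to 0.23) and -0.04 (-0.14 to 0.07). Itgal (ENSMUSG00000030830, chromosome 7, 127296260 to 127335138, plus strand), the αL chain of LFA-1, was higher in both spleens, at 32.9 CPM in CBM, 42.4 in CS, 32.7 in TBM, and 42.3 in TS. Its log2 ratios were 0.37 (0.08 to 0.64) and 0.37 (0.18 to 0.57), both under 2-fold. Free RNA held Itgal at 49.4 CPM in CBM and 34.0 in TBM, above the HSPC-like levels. It was below them in the spleens, at 27.2 CPM in CS and 17.7 in TS. With 10% free RNA subtracted, the Itgal ratios were 0.50 in control and 0.47 in tumor-bearing mice. Spleen was the higher in 5 of 6 comparisons within clusters, and in the cluster with Dusp2 and Cxcl2 CS was below CBM, at 51.6 against 61.5 CPM, a log2 ratio of -0.25.

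The same comparison was made in the other classes that held at least 50 cells in both libraries. Cd69 was highest in basophil-like cells in all 4 libraries, at 799 CPM in CBM, 1114 in CS, 1059 in TBM, and 944 in TS. It was next highest in B lineage-like cells of BM, at 436 CPM in CBM and 465 CPM in TBM, and HSPC-like cells ranked from 4 to 6 among the classes of a library. With HSPC-like cells counted in, spleen was above BM in 7 of the 9 classes compared in control mice and in 5 of the 6 compared in tumor-bearing mice.

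Megakaryocyte-like cells, of the platelet lineage, came closest to HSPC-like cells in their Cd69 pattern over both pairs. Control BM held 48.8 CPM (43.3 to 54.9) and control spleen 143 CPM (133 to 153), while TBM held 123 CPM (117 to 130.2) and TS 433 CPM (413 to 454). CBM was lowest and TS highest. The log2 ratio was 1.55 (1.35 to 1.75) in control and 1.81 (1.71 to 1.92) in tumor-bearing mice, and Cd69 was the 1 member of 9 past 2-fold in the control pair, where 5.55% of genes were past it in either direction. Their summed dissociation and immediate-early genes were 5146 CPM in CBM, 8275 in CS, 6517 in TBM, and 9472 in TS, higher in each spleen as in HSPC-like cells.

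In mast-like cells Cd69 was 119 CPM in CBM, 531 in CS, and 227 in TBM, a log2 ratio of 2.15 (1.90 to 2.42) for CS over CBM. It was the 1 of 8 members tested past 2-fold there, against 9.96% of genes, and the dissociation list summed to 5350 CPM in CBM and 11454 CPM in CS. In the unnamed class, 3 clusters with Apoe, Scin, or Gata2 among their leading genes (called Apoe-led here), Cd69 was 47.8 CPM in CBM, 104 in CS, 165 in TBM, and 425 in TS, with log2 ratios of 1.12 (0.90 to 1.34) and 1.36 (1.18 to 1.55). Different clusters held most of that class in CBM and CS, whereas TBM and TS drew on the same one. The dissociation list in that class summed to 5616 CPM in CBM, 6629 in CS, 8012 in TBM, and 9454 in TS, in the order of Cd69. GMP-like cells, granulocyte and monocyte progenitors, had 45.2 CPM in CBM, 97.1 in CS, 52.5 in TBM, and 69.2 in TS, past 2-fold in control alone, with log2 ratios of 1.10 (0.86 to 1.35) and 0.40 (0.29 to 0.51). TBM and TS drew mostly on different GMP-like clusters. Monocyte-like cells had 45.4 CPM in CBM and 73.5 CPM in CS, a log2 ratio of 0.70 (0.50 to 0.89). The dissociation list was higher in spleen here too, at 2043 CPM in CBM, 4355 in CS, 2397 in TBM, and 4419 in TS GMP-like cells and at 2921 CPM in CBM and 5049.8 CPM in CS monocyte-like cells. Its part was not tested.

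The basophil-like and erythroid classes did not follow that pattern. In basophil-like cells the log2 ratio was 0.48 (0.39 to 0.57) in control and -0.17 (-0.33 to -0.01) in tumor-bearing mice. The dissociation list there summed to 16234 CPM in CBM, 26272 in CS, 19054 in TBM, and 22546 in TS, so it was higher in TS than in TBM where Cd69 was lower. Early erythroid-like cells held 26.6 CPM in CBM, 20.6 in CS, 9.24 in TBM, and 19.6 in TS, all below the free RNA. Dendritic cell-like cells, found mainly in CS, held 16.3 CPM. In early erythroid-like cells, where TBM and TS drew mostly on different clusters, 1 of 9 members was past 2-fold in each pair, against 19.6% and 24.8% of genes. These were Selp in control, from 16 UMIs in CS and 4 in CBM, and Cd69 in tumor-bearing mice, at 1.08 (0.45 to 1.80), which became 2.49 with 10% free RNA subtracted. In hemoglobin-rich erythroid-like cells of the control pair, 2 of 6 members tested were past it, Selp and Selplg, both lower in CS and from at most 20 UMIs, against 13.6% of genes. Higher Cd69 in spleen was therefore not seen in every class.

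**Figure D4:**
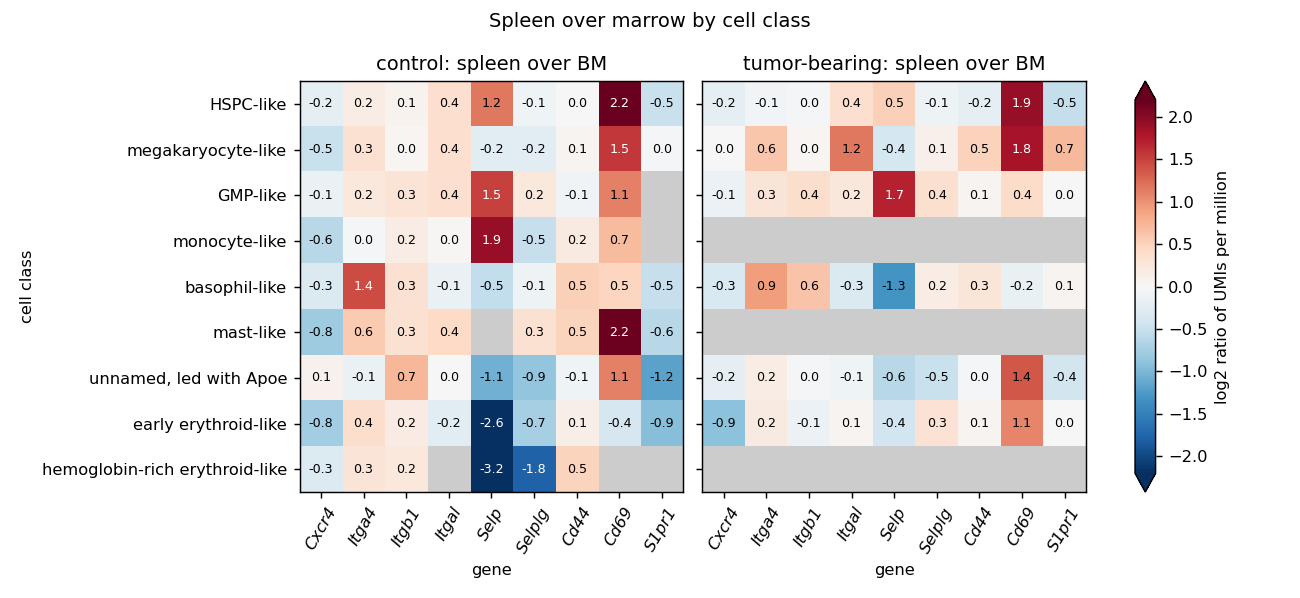
log2 ratio of CPM, spleen over BM, for the 9 genes (columns) in each class with at least 50 barcodes in both libraries, control on the left and tumor-bearing on the right. Grey cells had under 10 UMIs or a count of 0 in a library, and grey rows too few barcodes. Cd69 is higher in spleen in HSPC-like, megakaryocyte-like, Apoe-led, and GMP-like cells of both pairs, and ratios of erythroid classes for Selp rest on few UMIs.

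Selp had its highest levels in few classes. HSPC-like and megakaryocyte-like cells ranked 1 and 2 in all 4 libraries, and megakaryocyte-like cells, which store P-selectin for platelets, had 58.1 CPM in CBM, 49.2 in CS, 93.2 in TBM, and 70.9 in TS. There the spleen was the lower, by log2 ratios of -0.24 (-0.48 to -0.00047) and -0.39 (-0.59 to -0.20), the opposite of HSPC-like cells. The 10 megakaryocyte markers were lower in spleen in this class as well, with a sum of 6398 CPM in CBM, 4110 in CS, 4140 in TBM, and 3272 in TS and none at 0, and their part was not tested. Megakaryocyte-like cells thus ranked above HSPC-like cells in both BM libraries and below them in both spleens. In GMP-like cells Selp was low but higher in spleen, at 2.31 CPM in CBM, 6.56 in CS, 5.69 in TBM, and 18.3 in TS, with log2 ratios of 1.51 (0.45 to 2.60) and 1.69 (1.41 to 1.97). With Cd69 it made 2 of 8 members tested past 2-fold in GMP-like cells of the control pair, where 6.37% of genes were, and alone 1 of 9 in the tumor-bearing pair, where 7.45% were. Different GMP-like clusters held most of the TBM and TS cells of that class. Monocyte-like cells had 3.84 CPM in CBM and 14.4 CPM in CS, 1.91 (1.39 to 2.42), the 1 member of 9 past 2-fold there, against 7.73% of genes. Free RNA held Selp at 9.46 CPM in CBM, 3.75 in CS, 18.2 in TBM, and 11.9 in TS, so the GMP-like levels of both BM libraries lay below it.

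**Figure D5:**
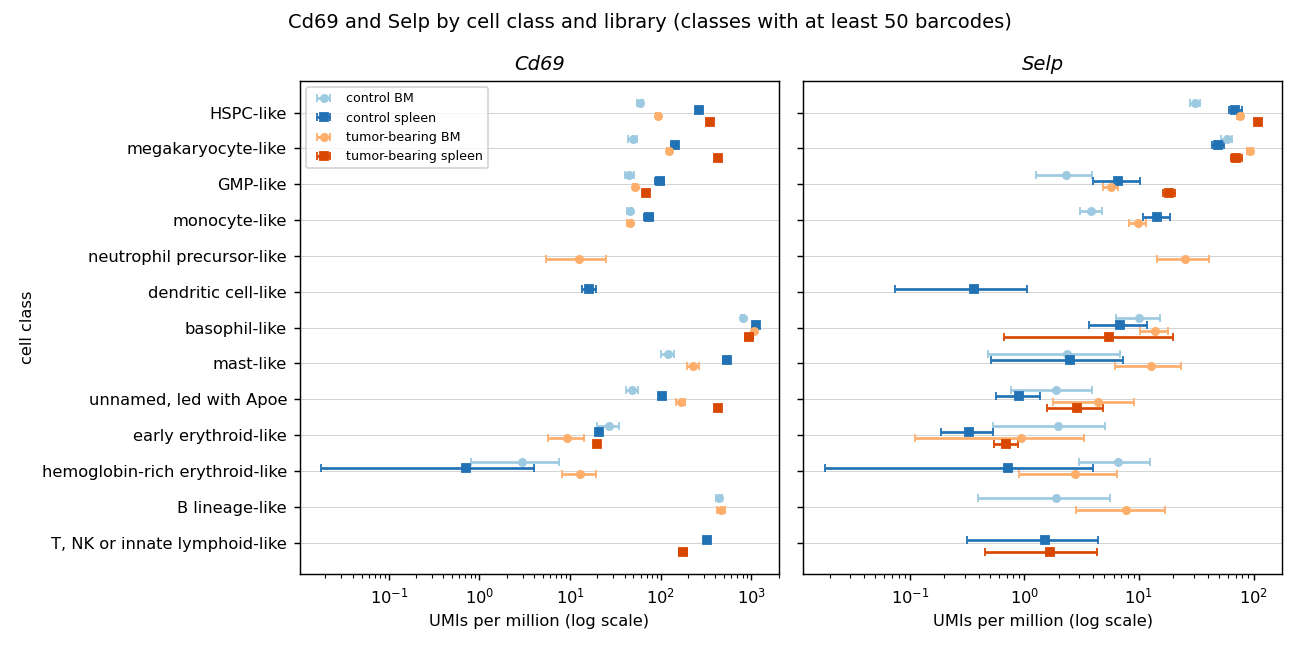
Levels of Cd69 and Selp (CPM, log scale) by cell class and library. Cd69 is highest in basophil-like cells of every library, and the highest Selp levels of each library are in HSPC-like and megakaryocyte-like cells.

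Cxcr4 was highest in basophil-like cells in CBM, CS, and TS and in B lineage-like cells, whose precursors need the receptor to stay in marrow, in TBM. B lineage-like cells had 282 CPM in CBM and 529.5 CPM in TBM, and basophil-like cells 306 CPM in CBM, 245 in CS, 276 in TBM, and 219.6 in TS. The basophil-like log2 ratios, -0.32 (-0.49 to -0.15) and -0.33 (-0.68 to -0.00072), were lower in spleen as in HSPC-like cells. The spleen value was also the lower in monocyte-like cells, at 81.3 CPM in CS against 124 CPM in CBM, and in mast-like cells, at 71.9 CPM against 124 CPM. In early erythroid-like cells it was 28.6 CPM in CBM, 16.8 in CS, 32.3 in TBM, and 17.4 in TS. The 10 hemoglobin-rich erythroid markers moved with it in that class, with a sum of 4977 CPM in CBM, 299 in CS, 5831 in TBM, and 319 in TS and none at 0, and their part was not tested. The free RNA was higher in BM than in spleen as well. With 10% free RNA subtracted, the spleen value stayed the lower in basophil-like, monocyte-like, mast-like, and early erythroid-like cells, and GMP-like cells turned from lower to higher in both pairs, as did Apoe-led cells in the tumor-bearing pair. Megakaryocyte-like cells were lower in CS with and without the subtraction, and higher in TS with it. Without it their TS and TBM levels were near equal, at 23.3 and 23.1 CPM, a log2 ratio of 0.014. The sign of that ratio held in 6 of 9 other settings. In Apoe-led cells the log2 ratio of CS over CBM was 0.096, went past 2-fold to 1.201 with the subtraction, and turned to -1.18 with clusters at resolution 0.6.

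Itga4 and Itgb1 were spread over most classes. Itga4 was high in mast-like cells, whose progenitors use α4 integrins to enter tissue, at 665 CPM in CBM, 989.8 in CS, and 428 in TBM, and in T, NK or innate lymphoid-like cells, with 884 CPM for CS and 627 CPM for TS. In basophil-like cells it was lower, at 56.8 CPM in CBM, 154 in CS, 53.4 in TBM, and 101.6 in TS, with spleen above BM by log2 ratios of 1.44 (1.14 to 1.76) and 0.93 (0.38 to 1.44). Each of these levels lay below the free RNA, which held Itga4 at 121 CPM in CBM, 167 in CS, 94.8 in TBM, and 208 in TS. The control ratio was past 2-fold in 7 of 9 other settings, with a lowest value of 0.89. Itga4 was the 1 member of 9 past 2-fold in basophil-like cells of control mice, where 9.97% of genes were. In tumor-bearing mice the 1 member past 2-fold was Selp, from 2 UMIs in TS and 51 in TBM, beside 14.7% of genes. Megakaryocyte-like cells also had more Itga4 in spleen, 158 CPM in CS against 125 CPM in CBM and 189 CPM in TS against 124 CPM in TBM. Itgb1 was highest in basophil-like cells in CBM, CS, and TS, at 299, 376, and 288 CPM, and in megakaryocyte-like cells was 219 CPM in CBM, 226 in CS, 187 in TBM, and 191 in TS.

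Itgal and Selplg had the most similar distributions of any pair of the 9 genes, with a Pearson r of 0.88 of log2(CPM + 10) over 39 sums of a class in a library, which share libraries and depth. Both were highest in basophil-like cells in all 4 libraries. Itgal was 198 CPM there in CBM, 179 in CS, 119.9 in TBM, and 96.1 in TS, and Selplg was 459.7, 424, 290.5, and 327 CPM. Itgal in megakaryocyte-like cells was low, but TS, at 19.6 CPM, was above TBM, at 8.74 CPM, by a log2 ratio of 1.16 (0.71 to 1.61), which with Cd69 made 2 of 9 members past 2-fold, against 7.15% of genes. Hemoglobin-rich erythroid-like cells held Selplg at 14.6 CPM in CBM, 4.29 in CS, and 10.6 in TBM, among the lowest levels of any class.

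For Cd44, HSPC-like cells ranked from 3 to 4 among the classes of every library. Its level was 250.5 CPM in neutrophil precursor-like cells of TBM and 193 CPM in dendritic cell-like cells of CS. Megakaryocyte-like cells had 174 CPM in TS against 123 CPM in TBM, a log2 ratio of 0.50 (0.36 to 0.63). S1pr1 was highest in lymphoid or basophil-like cells in CBM, CS, and TBM and in the Apoe-led class in TS. It was at 35.4 CPM in CBM and 42.4 CPM in TBM for B lineage-like cells and at 44.9 CPM in CS for T, NK or innate lymphoid-like cells. Basophil-like cells had 41.8 CPM in CBM, 29.5 in CS, 23.6 in TBM, and 24.7 in TS. In the Apoe-led class S1pr1 was lower in CS than in CBM, 14.4 against 32.5 CPM, a log2 ratio of -1.17 (-1.48 to -0.86), between libraries that drew on different clusters. With Cd69 and Selp, the last from 22 and 7 UMIs, it made 3 of 9 members past 2-fold, beside 12.5% of genes, and Cd69 was the 1 of 9 past it in the tumor-bearing pair, beside 8.93%.

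The 9 genes were set beside 44 other genes of homing, adhesion, and egress in HSPC-like cells. Of these, 41 held at least 10 UMIs in the control pair, of which 3 were 2-fold higher in spleen and 0 lower, beside 3.36% and 4.2% of all genes, and the median log2 ratio was 0.15. In the tumor-bearing pair 39 were tested, of which 1 was 2-fold higher and 1 lower, beside 2.4% and 5.41% of all genes, with a median of 0.05. Klf2, a transcription factor that drives S1pr1 in lymphocytes, was at 25.1 CPM in CBM, 64.4 in CS, 22.3 in TBM, and 37.7 in TS. Both spleens were above both BM libraries, by log2 ratios of 1.36 and 0.76, the second under 2-fold. Vcam1, the counter-receptor of the α4 and β1 integrin, was at 7.14 CPM in CBM, 16.5 in CS, 0.92 in TBM, and 1.05 in TS, so the control pair stood above the tumor-bearing pair. The 10 macrophage markers summed in the same order, 31.5, 53.7, 6.15, and 8.17 CPM, with 2 of the 10 at 0 in TBM and none at 0 elsewhere, and their part in the Vcam1 values was not tested. The other genes past 2-fold were the integrin chain Itgax, from 8 UMIs in CBM and 7 in CS, Itga9, at 3.18 CPM in TBM and 7.54 CPM in TS, and Fn1, which encodes fibronectin, at 3.89 CPM in TBM and 1.36 CPM in TS. No gene of the list with at least 10 UMIs in both pairs was past 2-fold in both.

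The genes whose levels over the 39 sums were most like those of each member, among 6195 genes, were named as a description. For Cd69 they were Zc3h12a (Pearson r 0.93) and Rasal3 (0.92), for S1pr1 Gpbp1l1 (0.96) and 5031425E22Rik (0.94), and for Selp Itih5 (0.85) and Adgrl4 (0.78). For Cxcr4 they were Dok3 (0.84) and Atp1b1 (0.83), for Itgal Tnfaip8l2 (0.93) and Arhgap9 (0.91), and for Selplg Ankrd44 (0.95) and Myo1g (0.94). Values were lower for Itga4, with Zfp644 (0.79) and Drosha (0.78), for Itgb1, with Gm26802 and Selenoi (both 0.74), and for Cd44, with Arpc2 (0.81) and N4bp1 (0.80). Cd69 and S1pr1, which act on each other as proteins, had an r of 0.74. In the whole HSPC-like class their spleen to BM ratios had opposite signs, but within the clusters both were higher in spleen in 5 of 6 comparisons. The S1pr1 level intervals overlap in each of these, and no interval of a ratio was taken within clusters.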

How the data were processed

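Spleen and BM cells of 4 groups, 1 library each, were counted by the authors with Cell Ranger 4.0 on mm10 (per the submitters' processing notes), and the deposited unfiltered matrices hold UMI counts per gene and barcode, not normalized. Whether counting used strand is not given in the sources used here. Barcodes with at least 1000 genes and at most 10% mitochondrial UMIs were kept, although the study kept those with at least 350 genes, and no doublet caller was run. Cells were clustered on Pearson residuals (theta 100, 50 principal components, 20 neighbors, Leiden resolution 1.2) without the 9 genes, 44 related genes, and 20 dissociation genes. Of 38 clusters, 28 were named from marker lists, some by rules added after their leading genes were seen, and 10 stayed unnamed. These names are rebuilt and can differ from the study's.

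Counts were summed per class and library and divided by the summed UMIs. A count of 0 was set to a floor of 3 counts. Called means at least 2-fold, for genes with at least 10 UMIs over both libraries. No test between groups was run. The 9 genes were all named, other genes of the list only past 2-fold, and like genes as the 2 with the highest r. The members and lists were chosen with earlier results of these data known. The ratio step was tested on simulated data. Alternatives were another resolution, other barcode filters, a UMI gate, subtraction of 10% free RNA, another scaling, the mean per cell, and another fold limit, and, added after the data were seen, each HSPC-like cluster alone and HSPC-like cells without UMIs of basophil or megakaryocyte markers. Python 3.11.15, NumPy 2.4.6, SciPy 1.17.1, pandas 2.3.3, leidenalg 0.10.2, and igraph 0.11.9 were used.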

Additional observations from a re-analysis of the deposited data

Results flagged for a closer look

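In basophil-like cells Cd69 was higher in spleen in control and lower in spleen in tumor-bearing mice, at 799 CPM in CBM, 1114 in CS, 1059 in TBM, and 944 in TS, so the log2 ratios differed by -0.64, tumor-bearing minus control. The difference between the pairs was not tested, since each group held 1 library. TS held 66 such cells, and TBM drew on both basophil-like clusters where the other libraries drew mainly on 1.

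In the unnamed class led with Apoe, Itga4 was lower in spleen in control, at 485 CPM in CBM and 438 in CS, and higher in tumor-bearing mice, at 605 CPM in TBM and 678 in TS. The log2 ratios, -0.14 and 0.16, differed by 0.31, and this difference was not tested either. Different clusters held most of that class in CBM and CS.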

How the results depend on the processing

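In HSPC-like cells the Cd69 log2 ratio ranged from 1.62 to 2.26 in control and from 1.66 to 2.05 in tumor-bearing mice over the 10 other settings, and Selp from 0.48 to 1.2 and from 0.17 to 0.60, lowest with the UMI gate. That gate also put Itga4 at 0.89 and 0.38, and S1pr1 at -1.18 and -0.87. The members past 2-fold stayed at 2 in control and 1 in tumor-bearing mice, but under the gate the 2 were Cd69 and S1pr1. In the cluster with Dusp2 and Cxcl2 alone, an alternative added after the data were seen, the tumor-bearing count was 2, Cd69 and Selp. In control the 2 were Cd69 and S1pr1, with Selp at 0.56. S1pr1 was higher in spleen there at 1.92, from 10 UMIs in 41 CS cells and 2 UMIs in 37 CBM cells, with intervals that overlap. In hemoglobin-rich erythroid-like cells, Cd69 reversed from -2.04 (1 and 4 UMIs) to 0.079 with barcodes from 350 genes and to 0.48 with the mean per cell, and S1pr1 from -1.04 (1 and 2 UMIs) to 0.66 with barcodes from 350 genes. The cause was not tested. A minimum of 100 UMIs left each ratio as it was by construction. Of the 1012 values under the other settings, in all classes, 952 stayed within the interval of the reported value, 57 moved outside it, and 3, those above, turned the sign of a value past 2-fold. In all, 54 changed sign, for 32 of the 133 reported values. Under the settings added after the data were seen, in HSPC-like cells, 58 stayed and 32 moved. No paired analysis of spleen and BM was run, and each organ held 1 library in control and 1 in tumor-bearing mice. With 1 library per group, mouse, sort, and organ cannot be told apart, and genes under 10 UMIs entered no count of genes past 2-fold.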
